A study of Homo sapiens with 6 samples.

Results

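The genes described here are AXL, TYRO3 and MERTK, which encode the TAM family of receptor tyrosine kinases, and GAS6 and PROS1, which encode their ligands. They were chosen by gene symbol and not by a cut-off on measured values, but with earlier results of these data known. They are 5 of the 60504 genes in the count table. All 5 had enough reads to be tested. RNA-seq was performed on WM164, a human melanoma cell line with the BRAFV600E genotype. The EV group carried an empty expression vector and the HDAC8 group an expression vector for HDAC8, a class I histone deacetylase, with 3 libraries in each group and no other treatment named. In the methods of the study the plasmids were introduced with Lipofectamine and the cells were kept in hygromycin, so both groups are transfected, selected derivatives of 1 cell line. The comparison asks how HDAC8 expression altered the transcripts of melanoma cells.

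TAM receptors do not bind phosphatidylserine themselves. GAS6 and protein S, the product of PROS1, hold the exposed phosphatidylserine of dying cells, vesicles and some living cells at one end and the receptor at the other, and need a vitamin K-dependent modification to do so. GAS6 binds each of the receptors, while protein S acts mainly on TYRO3 and MERTK. In macrophages and other phagocytes the receptors mediate the engulfment of dying cells, and in melanoma AXL is known as a mark of poorly differentiated, invasive cells while MERTK and TYRO3 are usually found in more differentiated ones.

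Total counts per library were 34741083 to 42041462 and overlapped between the groups. To be called, a gene needed a DESeq2 adjusted p under 0.05 together with a log2 fold change of 0.58 or more in either direction. The HDAC8 transcript itself was not called (DESeq2 log2 fold change 0.15, 95% interval -0.41 to 0.70, adjusted p = 0.856). The transcript therefore gave no check of the labels, and directions below are those of the libraries labelled HDAC8. HDAC8 1 differed more from the other HDAC8 libraries than these did from each other, so values without it are given for the members. Mitochondrially encoded transcripts took 9.66% to 12.8% of the counts in EV and 4.46% to 7.94% in HDAC8, and in a fit without them the log2 fold change of AXL was again 2.42. The melanocyte lineage genes SOX10 and MITF were present in all libraries, whereas 5 of 7 melanocyte lineage markers were called lower in HDAC8, against 5.44% of the genes with an adjusted p. Of the markers of other cells, CD163, AIF1 and TYROBP of macrophages, CDH5 of endothelium, DCN of fibroblasts and EPCAM and KRT19 of epithelium were at 0 in every library. Others of these lists were not at 0. In EV the most abundant macrophage marker was LYZ (mean normalized count 118, and 107 in HDAC8). The most abundant endothelial marker in EV was VWF (110, and 143 in HDAC8), and the most abundant epithelial one CDH1 (55.8, and 9.69 in HDAC8). The fibroblast marker LUM was not low, with a mean of 2462 in EV and 1629 in HDAC8 (log2 fold change -0.60, DESeq2 adjusted p = 0.0778), and made up most of the sum of its list. Summed normalized counts were 111 to 255 in EV and 141 to 192 in HDAC8 for 9 macrophage and leukocyte markers, 167 to 266 and 260 to 466 for 6 endothelial, 2509 to 2894 and 1499 to 2423 for 7 fibroblast, and 84.1 to 177 and 0 to 71.0 for 6 epithelial markers. PDGFRA, in the fibroblast list, was the 1 of these that was called, and the part of other cells in the results was not tested.

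AXL had the largest fitted change of the 5 members. Its fitted level was 5.35 times as high in HDAC8 as in EV, and it was the 1 member of 5 that was called, against 11% of the 21021 genes with an adjusted p and 5.57% called higher. TYRO3 and PROS1 had fitted changes above 0, MERTK and GAS6 had fitted changes below 0, and none of these was called. The EV and HDAC8 libraries did not overlap for 3 of the 5 members, namely AXL and PROS1 with higher and MERTK with lower counts in HDAC8, against 24% of all genes tested.

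**Figure D1:**
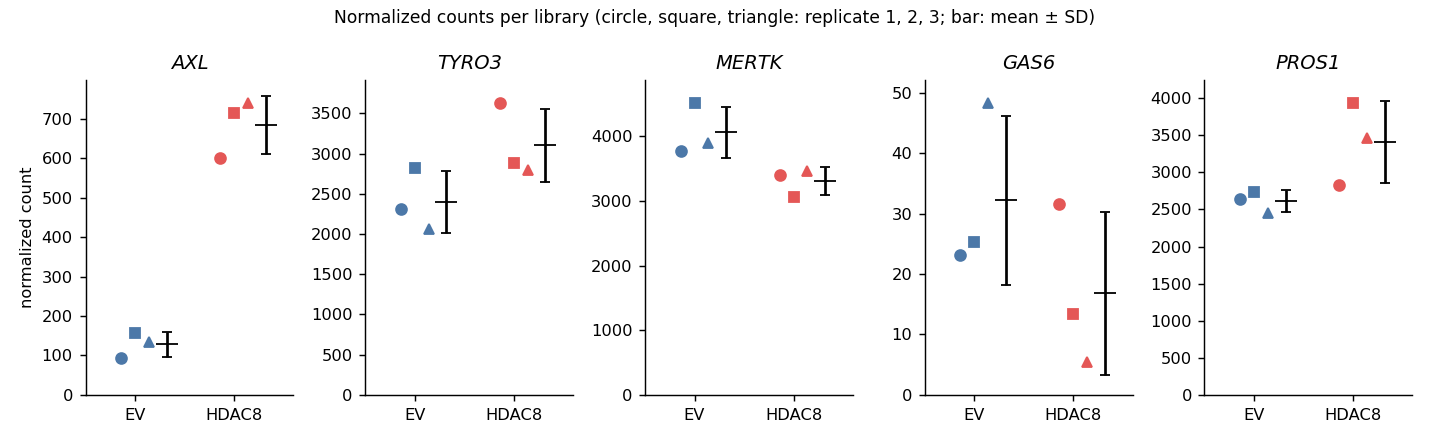
Normalized counts (y axis, linear, starting at 0, with its own scale for each gene) of the 5 members in the 3 EV libraries (blue) and the 3 HDAC8 libraries (red), with the group mean ± SD beside the points. AXL lay between 92.3 and 156 in EV and between 601 and 739 in HDAC8, while the TYRO3 and GAS6 points overlapped.

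The sequences before the annotated starts of AXL are shown because AXL was the called member. RefSeq, on GRCh38.p14, gave 2 starts for it, and the 250 bases before each start are written 5′ to 3′ on the plus strand. The first stretch is chr19:41218973-41219222, directly before the first base of the gene in GENCODE release 44, and the second is chr19:41226505-41226754, inside the gene. Capitals mark every match to 6 short motifs, each searched on both strands. These were TGANTCA for AP-1 factors, GGAATG for TEAD factors and GGGCGG for Sp1. The others were E-boxes, which basic helix-loop-helix factors such as MITF and zinc finger factors such as ZEB proteins bind. Their classical form is CACGTG, and a variant found in MITF sites is CATGTG. The form typical of ZEB and SNAI proteins is CAGGTG.

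AXL start 1: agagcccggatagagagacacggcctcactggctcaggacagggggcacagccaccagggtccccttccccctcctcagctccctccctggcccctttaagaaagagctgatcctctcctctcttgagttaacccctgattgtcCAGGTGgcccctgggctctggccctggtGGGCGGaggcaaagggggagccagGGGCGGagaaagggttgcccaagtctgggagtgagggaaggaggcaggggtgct

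AXL start 2: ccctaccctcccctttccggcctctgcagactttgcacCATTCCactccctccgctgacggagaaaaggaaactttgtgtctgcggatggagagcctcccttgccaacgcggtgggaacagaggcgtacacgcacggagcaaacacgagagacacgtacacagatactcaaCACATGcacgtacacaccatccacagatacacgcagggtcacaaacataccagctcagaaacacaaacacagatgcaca

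The stretch before the first start held CAGGTG, with its first base 106 bases before the start, and GGGCGG at 78 and 54 bases before it. The stretch before the second start held CATTCC, the reverse complement of the TEAD letters, 212 bases before the start and CACATG, the reverse complement of CATGTG, 79 bases before it. Among 35116 RefSeq windows of 300 bases, from 250 before to 50 after a start, 20.6% held CAGGTG, 45.0% GGGCGG, 14.0% the TEAD letters, 11.1% CATGTG, 7.26% CACGTG and 7.71% the AP-1 letters. The AP-1 letters were not in either AXL window, and the only member window with them was that of the first TYRO3 start, as TGAATCA 220 bases before it. No matches in the printed stretches overlapped. A match describes the letters only and is not a bound site, and the motifs were picked with the expression values known.

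AXL (ENSG00000167601, GRCh38 chromosome 19, 41219223 to 41261766, plus strand) binds GAS6 with high affinity. Its normalized counts were 92.3, 156.0 and 135.0 in EV and 601.1, 713.8 and 739.4 in HDAC8, from rounded counts of 88, 167 and 137 against 703, 697 and 679. All 3 HDAC8 libraries were far above all 3 EV libraries. The mean was 127.7 ± 32.5 (SD, n = 3) in EV and 684.8 ± 73.6 in HDAC8. DESeq2 gave a log2 fold change of 2.42 (SE 0.33, 95% interval 1.78 to 3.06, adjusted p = 1.05e-11), which is 5.35-fold with an interval of 3.44 to 8.34. Among 14440 genes whose mean normalized count reached 50, 159 (1.10%) had a larger log2 fold change. Without HDAC8 1 the log2 fold change was 2.51 (DESeq2 adjusted p = 2.56e-10). In both groups AXL stayed a gene of modest level among the protein-coding genes tested. Its normalized count per kb of transcript was above that of 25.6% of them in EV and 43.7% in HDAC8.

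TYRO3 (ENSG00000092445, GRCh38 chromosome 15, 41557675 to 41583589, plus strand) encodes the receptor best known from the nervous system. Its normalized counts were 2310, 2825 and 2068 in EV and 3629, 2884 and 2796 in HDAC8. HDAC8 1 was the highest library, HDAC8 2 lay just above EV 2, and HDAC8 3 lay below EV 2, so the groups overlapped. The log2 fold change was 0.37 (SE 0.18, 95% interval 0.01 to 0.73, DESeq2 adjusted p = 0.196), and without HDAC8 1 it was 0.24 (adjusted p = 0.400). A difference of up to 1.66-fold is within the interval. The pseudogene TYRO3P, with which TYRO3 can share reads, had mean normalized counts of 156.2 in EV and 120.7 in HDAC8, far below the 2401 and 3103 of TYRO3.

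MERTK (ENSG00000153208, GRCh38 chromosome 2, 111898607 to 112029561, plus strand) encodes the receptor that phagocytes use to take up dying cells. Its normalized counts were 3771, 4517 and 3897 in EV and 3405, 3068 and 3463 in HDAC8. Every HDAC8 library was below every EV library, but the difference was not called. The mean was 4061 ± 399 (SD, n = 3) in EV and 3312 ± 213 in HDAC8. The log2 fold change was -0.29 (SE 0.15, 95% interval -0.59 to 0.004, DESeq2 adjusted p = 0.219), and without HDAC8 1 it was -0.32 (adjusted p = 0.116).

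GAS6 (ENSG00000183087, GRCh38 chromosome 13, 113820549 to 113864076, minus strand) was the least abundant member. Its rounded counts were 22, 27 and 49 in EV and 37, 13 and 5 in HDAC8, which are normalized counts of 23.1, 25.2 and 48.3 against 31.6, 13.3 and 5.44. The HDAC8 libraries spread from the second highest value of all to the lowest, so the groups overlapped. The log2 fold change was -0.93 with a 95% interval of -3.20 to 1.33 (DESeq2 adjusted p = 0.739), so the interval holds large differences of either sign. Without HDAC8 1 it was -1.78 (adjusted p = 0.428). The antisense gene GAS6-AS1, on the opposite strand of the same locus, had counts of 0, 22 and 8 in EV and 36, 12 and 8 in HDAC8. Whether reads were counted by strand is not given in the sources used here, so reads of GAS6 and GAS6-AS1 may be mixed.

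PROS1 (ENSG00000184500, GRCh38 chromosome 3, 93873051 to 93980003, minus strand) encodes protein S, which is also a cofactor of anticoagulant protein C. Its normalized counts were 2647, 2737 and 2446 in EV and 2826, 3934 and 3464 in HDAC8. The lowest HDAC8 library, HDAC8 1, was only just above the highest EV library, while the other two stood clearly above. The mean was 2610 ± 149 (SD, n = 3) in EV and 3408 ± 556 in HDAC8. The log2 fold change was 0.38 (SE 0.17, 95% interval 0.05 to 0.72, DESeq2 adjusted p = 0.131). Without HDAC8 1 it was 0.50 and passed the p threshold (adjusted p = 0.00471), but it stayed under the minimum of 0.58. The pseudogene PROS2P was at 0 in every library.

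In this bulk RNA, fewer cells with a transcript and less of it per cell cannot be told apart. The labels do not say that the libraries came from separate cultures, so the p-values measure the spread between these libraries, which may be technical.

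**Figure D2:**
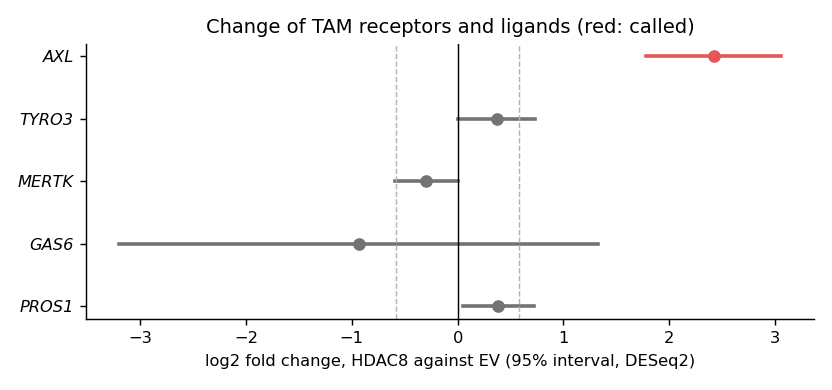
Log2 fold change of each member, HDAC8 against EV (x axis, points), with its 95% interval from DESeq2 (bars). AXL (red, called) stands at 2.42 with an interval above the minimum of 0.58 (right dashed line), the intervals of TYRO3, PROS1 and MERTK reach at most a little past a dashed line, and that of GAS6 runs from -3.20 to 1.33.

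To compare levels between genes, normalized counts were divided by the length of the canonical transcript in kb. In EV the order was MERTK (1062 ± 104 per kb), PROS1 (774 ± 44.2), TYRO3 (299 ± 48.2), AXL (27.1 ± 6.88) and GAS6 (12.8 ± 5.57; SD, n = 3), and no neighbours in this order overlapped. In HDAC8 the order was PROS1 (1011 ± 165), MERTK (866 ± 55.7), TYRO3 (386 ± 57.0), AXL (145 ± 15.6) and GAS6 (6.70 ± 5.36), and only PROS1 and MERTK overlapped. AXL was thus the lowest receptor in both groups, with TYRO3 11.04 times its level per kb in EV and 2.66 times its level in HDAC8. GAS6 was the lowest member in both, below AXL by 2.11-fold in EV and by 21.7-fold in HDAC8. These ratios and part of the order depend on the length used. Per kb of coding sequence, TYRO3 was 18.9 times AXL in EV, and 1162 against 255 in HDAC8. MERTK and PROS1 then overlapped in EV, and the order in HDAC8 was PROS1, TYRO3, MERTK, AXL and GAS6.

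The make-up of the receptors differed between the groups while the ranges of their sum overlapped. The summed level of AXL, TYRO3 and MERTK was 1293, 1565 and 1305 normalized counts per kb in EV and 1469, 1312 and 1410 in HDAC8, with overlapping groups. AXL was 1.51%, 2.11% and 2.19% of this sum in EV and 8.67%, 11.5% and 11.1% in HDAC8. MERTK was 75.4% to 78.1% in EV and 60.6% to 64.2% in HDAC8, and TYRO3 was 19.7% to 22.5% against 24.7% to 30.8%. The groups did not overlap for any of these shares, which move together because they sum to the whole. MERTK was the largest share in all 6 libraries.

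The share of TYRO3 depends on the length taken for its transcript. The canonical TYRO3 transcript has 8032 bases, of which 2670 are coding, against 4717 and 2682 for AXL. Per kb of coding sequence, an alternative chosen after seeing the data, TYRO3 was 39.0% ± 2.18 (SD, n = 3) of the sum in EV and 45.9% ± 3.87 in HDAC8, MERTK was 59.0% ± 1.96 and 43.9% ± 2.49, and AXL was 2.06% ± 0.410 and 10.2% ± 1.70. With this length TYRO3 and MERTK overlapped in HDAC8 with TYRO3 slightly higher in the mean, while AXL remained the lowest receptor in both groups.

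**Figure D3:**
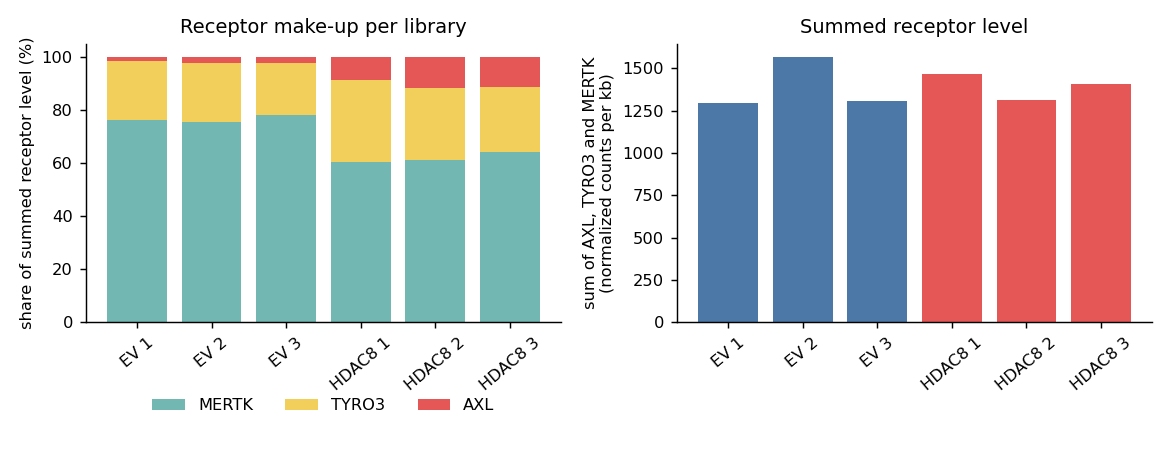
Left, share of AXL (red), TYRO3 (yellow) and MERTK (green) in the summed receptor level of each library in percent, per kb of canonical transcript. Right, that sum in normalized counts per kb for EV (blue) and HDAC8 (red), where both groups lie between 1293 and 1565 while the AXL share goes from at most 2.19% in EV to at least 8.67% in HDAC8.

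Ratios between members within a library do not depend on how libraries are scaled to each other, and 4 were compared by a two-sided exact permutation test. With 3 against 3 libraries this test cannot give a p below 0.1, so no ratio could pass. The AXL to MERTK ratio of counts was 0.0246, 0.0346 and 0.0348 in EV and 0.177, 0.233 and 0.214 in HDAC8, with means apart by 2.74 on the log2 scale or 6.67-fold (exact p = 0.1, adjusted over the 4 ratios 0.133). The AXL to TYRO3 ratio was 4.21-fold higher in HDAC8, with values of 0.0402 to 0.0655 in EV and 0.166 to 0.265 in HDAC8 (exact p = 0.1, adjusted 0.133). For both ratios the groups did not overlap.

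Neither TYRO3 nor MERTK was called, but the ratio between them was separate in the groups. As a ratio of counts it was 0.613, 0.626 and 0.531 in EV and 1.07, 0.940 and 0.808 in HDAC8, so every HDAC8 library was above every EV library. The difference was 0.66 on the log2 scale or 1.58-fold (exact p = 0.1, adjusted 0.133). The GAS6 to PROS1 ratio was 0.0089 to 0.0199 in EV and 0.0017 to 0.0113 in HDAC8, with overlapping groups (log2 difference -1.53, exact p = 0.3, adjusted 0.3).

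**Figure D4:**
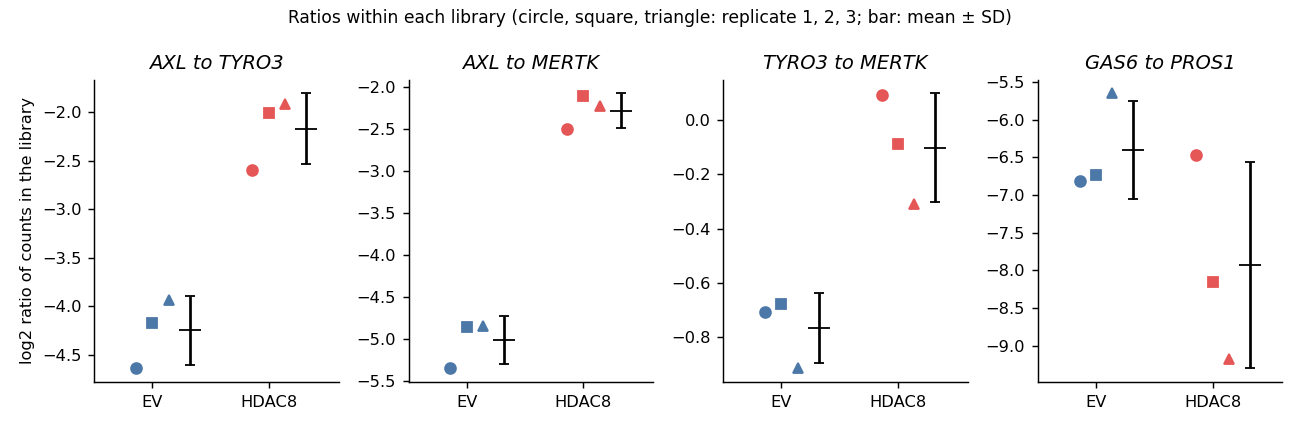
Log2 ratio of the counts of 2 members within each library (y axis, its own scale for each panel) in EV (blue) and HDAC8 (red), with mean ± SD. The groups are apart by 2.07 for AXL to TYRO3, 2.74 for AXL to MERTK and 0.66 for TYRO3 to MERTK, and overlap for GAS6 to PROS1.

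Calls were also counted among genes that make TAM ligands active or remove the receptors from the cell surface. Over all genes with an adjusted p, DESeq2 called 11% in either direction. Of 5 genes of ligand maturation, 0 were called in either direction by DESeq2, edgeR or limma-voom, with 1 of them at an unadjusted p under 0.05 (median log2 fold change 0.003, against -0.003 over all genes with an adjusted p). FURIN, which cleaves proproteins, was at 0.52 (DESeq2 adjusted p = 0.0152), under the fold minimum, and was called without EV 2 (0.69, adjusted p = 0.000426) or without HDAC8 2 (0.62, adjusted p = 0.00734). GGCX, the carboxylase that gives GAS6 and protein S their vitamin K-dependent modification, was at -0.21 (adjusted p = 0.365). Of 5 genes of receptor shedding and turnover, 1 was called higher, the metalloproteinase inhibitor TIMP3 (log2 fold change 0.68, adjusted p = 9.27e-06). The sheddases ADAM10 (0.24, adjusted p = 0.333) and ADAM17 (0.15, adjusted p = 0.612) were not called.

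Genes that set the exposure of phosphatidylserine, the lipid to which TAM ligands attach, moved in both directions. Of 8 with an adjusted p, 1 was called higher and 2 lower, against 5.57% and 5.44% of all genes. ATP8A2, a flippase that returns the lipid to the inner leaflet, rose from a mean normalized count of 20.2 to 160 with a log2 fold change of 2.99 (DESeq2 adjusted p = 0.000348), and its relative ATP8A1 fell from 853 to 300.4 (-1.51, adjusted p = 6.25e-06). XKR8, a scramblase activated in dying cells, was 185.6, 124.2 and 83.7 in EV and 15.4, 0 and 41.4 in HDAC8 (-2.80, adjusted p = 0.0348), and lost its call without EV 1, EV 2, EV 3 or HDAC8 1 (adjusted p of 0.0616 to 0.272) and in limma-voom (0.0533). The more abundant ATP11A, ANO6 and TMEM30A were not called, at 0.18, 0.08 and -0.24.

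Among 9 genes with an adjusted p for other phosphatidylserine bridges and receptors, 2 were called higher by DESeq2, edgeR and limma-voom. None was called lower by DESeq2 or edgeR and 1 by limma-voom, with 1 gene below 0 at an unadjusted p under 0.05. DESeq2 called 5.57% of all genes with an adjusted p higher and 5.44% lower. ITGB5, the beta subunit of an integrin that takes up dying cells through the bridge protein MFGE8, had means of 2509 in EV and 8913 in HDAC8 (log2 fold change 1.83, DESeq2 adjusted p = 4.62e-22). TUB, whose product has been described as a MERTK ligand, was 2.30-fold higher (192 against 440, adjusted p = 0.0167), and lost its call without EV 1, EV 2, HDAC8 1 or HDAC8 2 (adjusted p of 0.0911, 0.0967, 0.0562 and 0.117). LGALS3, another protein described as a MERTK ligand, was at -0.57 (adjusted p = 0.000972), just under the fold minimum, and was called without EV 3, HDAC8 2 or HDAC8 3 (-0.59, -0.65 and -0.62).

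Of 38 genes with an adjusted p for signal transduction downstream of the receptors, 1 was called higher and 7 lower, against 5.57% and 5.44% of all genes with an adjusted p, while the median log2 fold change of the list was 0.01. The genes called lower include SRC, a kinase that acts next to the receptors (-3.98, from 263 to 16.8, DESeq2 adjusted p = 6.37e-07), SNAI2, an EMT transcription factor (-2.19), ELMO1, which helps to activate RAC1 in engulfment (-1.93), and PIK3R3, a regulatory subunit of PI3-kinase (-1.58). DOCK5, a RAC exchange factor, rose by 0.79 on the log2 scale (adjusted p = 4.94e-05). SHC1, PLCG1 and RAC1, among the most abundant of the list, were at 0.12, 0.26 and -0.10 and not called.

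Of 9 receptor kinases with an adjusted p that are known to partner or crosstalk with AXL, 3 were called higher by DESeq2 and 2 by edgeR or limma-voom. The count of genes called lower was 0 by each tool, with 1 at an unadjusted p under 0.05. The shares over all genes with an adjusted p were 5.57% called higher and 5.44% called lower by DESeq2. EGFR was 84.9, 36.4 and 39.4 in EV and 364, 358 and 376 in HDAC8 (log2 fold change 2.78, DESeq2 adjusted p = 7.84e-08). MET rose from 2964 to 5221 (0.82, adjusted p = 1.84e-05). PDGFRA went from 140 to 313 (1.16, adjusted p = 0.0377), a call lost in edgeR and limma-voom and kept only without HDAC8 2 when libraries were left out, with adjusted p of 0.183, 0.0536 and 0.132 without EV 1, EV 2 and EV 3, and 0.0840 and 0.233 without HDAC8 1 and HDAC8 3. The more abundant ERBB3, FGFR1 and ERBB2 were not called, at -0.18, 0.27 and 0.29.

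Of 25 tested regulators reported for AXL transcription, 3 were called higher and 1 lower, against 11% of all genes with an adjusted p called in either direction. By edgeR or limma-voom 2 were called higher. Those called higher by DESeq2 were JUN, FOSL1 and FOSB, which belong to the 7 AP-1 subunits in the list. JUN was 570, 619 and 531 in EV and 1686, 1083 and 1134 in HDAC8 (log2 fold change 1.18, DESeq2 adjusted p = 4.62e-05), and FOSL1 was 1015, 1161 and 1032 against 2245, 2361 and 2486 (1.14, adjusted p = 4.30e-09). FOSB was at 0.76 (adjusted p = 0.0447), a call lost in edgeR and limma-voom and kept only without HDAC8 2 when libraries were left out, with adjusted p of 0.123, 0.152 and 0.161 without EV 1, EV 2 and EV 3, and 0.133 and 0.190 without HDAC8 1 and HDAC8 3. EPAS1, a hypoxia-inducible factor, was the 1 called lower (-1.06, adjusted p = 5.29e-08). WWTR1, a YAP1-like coactivator of the TEAD factors, was at 0.41 (adjusted p = 0.0631), MITF at -0.20 and SOX10 at -0.33, and none of these was called.

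Genes reported to be high together with AXL in melanoma were called higher in 10 of 33 cases and lower in 2, against 5.57% and 5.44% of all genes with an adjusted p. The median of their log2 fold changes was 0.41. CTGF, a matricellular protein, rose by 3.89, and TMEM45A, NGFR, a neural crest receptor, and CYR61 rose by 2.76, 2.56 and 2.14 (DESeq2 adjusted p of 2.03e-06 or less for each of the 4). CRYAB, a small heat shock protein, fell by 1.98 (adjusted p = 2.40e-11) and WNT5A, a secreted Wnt ligand, fell by 1.04 (adjusted p = 0.00925), a call lost without EV 2 or EV 3 (adjusted p of 0.0877 and 0.0665). MAP1B, TMSB10 and COL6A2, the most abundant of those not called, were at -0.02, 0.02 and 0.41. In contrast to AXL, the melanocytic gene MLANA fell from 8618, 8323 and 9052 in EV to 237, 300.1 and 372 in HDAC8 (DESeq2 adjusted p = 2.36e-161).

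Of the 12 listed partners of protein S in anticoagulation and complement, only 4 had an adjusted p, with 1 called higher and 2 lower. Among all genes with an adjusted p, 5.57% were called higher and 5.44% lower. PROCR, the endothelial receptor for protein C, was 260, 238 and 250 in EV and 1.71, 0 and 14.2 in HDAC8 (log2 fold change -5.60, DESeq2 adjusted p = 9.09e-11). TFPI, an inhibitor of the tissue factor pathway for which protein S is a cofactor, was 120, 277 and 290 in EV and 0, 0 and 13.1 in HDAC8 (-5.73, adjusted p = 0.0280), and lost its call without any 1 of the EV libraries (adjusted p of 0.187 to 0.265). SERPINA5, which inhibits activated protein C, rose by 0.77 (adjusted p = 0.00879), and lost its call without EV 1 or EV 3 (adjusted p of 0.0511 and 0.110) or HDAC8 1 (0.57, under the fold minimum).

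**Figure D5:**
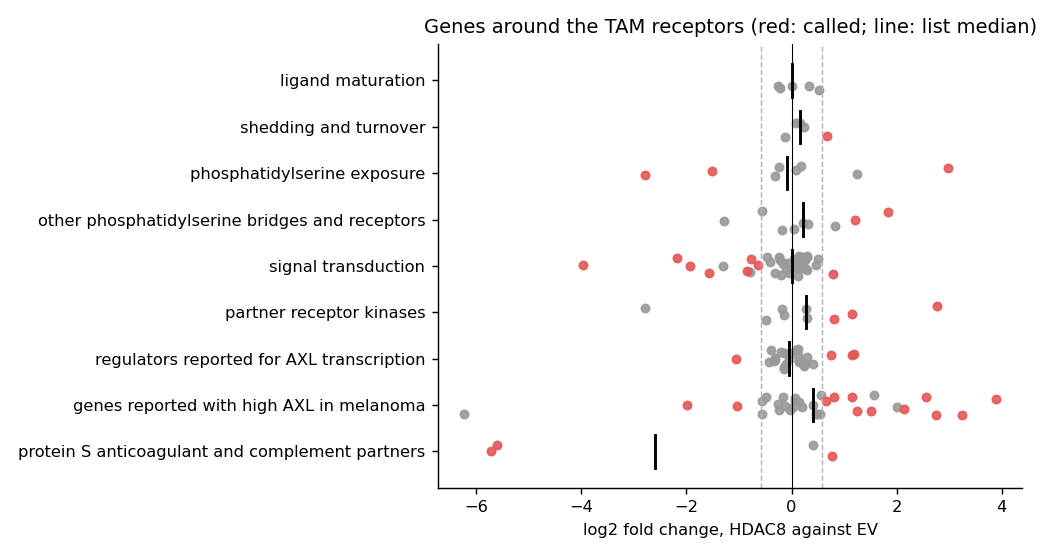
Log2 fold change, HDAC8 against EV (x axis), of the genes with an adjusted p in 9 lists of genes around the TAM receptors (rows). Red points are called, grey points are not, black lines mark the list medians and dashed lines the fold minimum, and the calls of signal transduction lie mostly to the left while those of the partner receptor kinases lie to the right.

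The nearest expressed protein-coding genes on either side did not share the call of AXL. HNRNPUL1, which starts 730 bases after the end of AXL, was at 0.37 (DESeq2 adjusted p = 0.0675). EGLN2, which lies 410789 bases away on the other side, was at 0.42 (adjusted p = 0.413). The antisense gene AC011510.1, which overlaps AXL on the other strand, was at 0 in every library. Of the 8 neighbours of the other members, 2 were called, against 14.0% of all genes that reached the mean count asked of neighbours. Both fell, MGA next to TYRO3 (log2 fold change -0.86, DESeq2 adjusted p = 2.06e-07) and EPHA3 on the side before PROS1 (-2.86, adjusted p = 7.00e-96). EPHA3 lies 4390917 bases from PROS1, so it is not close to it, and an effect local to PROS1 was not tested.

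Over the 6 libraries, the genes whose log2 normalized counts followed AXL most closely were the long noncoding RNA AL355103.1, PTCHD1 and ANXA2, a membrane-binding annexin (Pearson r of 0.998 to 0.999). Among 14450 genes, 508 had an r of at least 0.95 with AXL, 195 with TYRO3, 75 with MERTK and 84 with PROS1. The closest to TYRO3 were CLEC11A, LINC00476 and SLC12A4, to MERTK were TBC1D14, TKT and ZNF609, and to PROS1 were MAGT1, CCND1 and ZNF275. These correlations share the same 6 libraries and include the difference between the groups.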

How the data were processed

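RNA-seq was performed on 6 libraries of total RNA from WM164 cells, 3 EV and 3 HDAC8, grouped by their labels. The authors trimmed reads with Trimmomatic, aligned them with STAR and quantified them per gene with RSEM. The table deposited by the authors holds these expected counts, not scaled between libraries. An expected count divides a read among the genes it fits, so genes with near-identical copies are less certain. Genome build, annotation release and strand setting are not given in the sources used here. Positions and lengths were taken from GENCODE release 44 by Ensembl identifier (56558 of 60504 found), and start windows from RefSeq. Protein sequences were not used here.

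Expected counts were rounded and tested in DESeq2 1.42.0 (R 4.3.3; Wald test, two-sided) wherever a gene had 10 or more counts in all, with its own size factors (0.918 to 1.17), no covariate and Benjamini-Hochberg adjustment. Genes without an adjusted p were left out of counts of calls. Levels between genes are normalized counts per kb. Ratios used counts plus 0.5. Library totals of 34741083 to 42041462 put the floor of 3 counts at 2.57 to 3.27 normalized counts. This floor covers counting error only. Pairs of libraries within a group differed well beyond sampling noise (chi-square per degree of freedom 27.6 to 167.6), so none was deposited again under another name.

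Named genes are the members, genes that share their reads or locus, the nearest protein-coding gene on each side with a mean normalized count of 50 or more, HDAC8, and from each list up to 5 called genes per direction and the 3 most abundant not called with a mean of at least 20, plus the 3 genes most like each member. Of these, 3 genes are not reported here. The members and the lists were chosen with earlier results of these data known. Melanocyte, macrophage, endothelial, fibroblast and epithelial marker lists were also counted. Alternatives were edgeR 4.0.16, limma-voom 3.58.1, other size factors and filters, a fit without mitochondrially encoded genes, a replicate block, a test against the fold minimum, each library left out, and other lengths. The fits were tested on simulated data.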

Additional observations from a re-analysis of the deposited data

How the results depend on the processing

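The 84 alternative values of the members kept their direction, and no member changed its call. PROS1 passed the p threshold without HDAC8 1 (DESeq2 adjusted p = 0.00471) but stayed under the fold minimum. AXL was at 2.23 to 2.59 on the log2 scale over 17 alternatives and was called in each, with an adjusted p of 9.24e-05 or less, also in the test against the fold minimum itself (1.91e-06). TYRO3 was at 0.24 to 0.50, MERTK at -0.39 to -0.21, GAS6 at -1.78 to -0.28 and PROS1 at 0.27 to 0.50. GAS6 gave no value when 10 counts were asked of each library, and its value nearest to 0 came with reads of the overlapping genes added. GAS6 had at most 49 counts in any library and the widest interval of the members.

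Genes called higher numbered 1170, against 772 with upper-quartile size factors and 292 with the test against the fold minimum. Genes called lower numbered 1143, against 291 with that test and 746 to 1378 with 1 library left out (746 without EV 3, 1378 without HDAC8 1). Upper-quartile factors lowered the share of higher among all calls from 50.6% to 37.4%. The test against the fold minimum also ended the calls of TIMP3, TUB, XKR8, DOCK5, PDGFRA, MET, JUN, FOSB, EPAS1, WNT5A, SERPINA5, TFPI and MGA. Upper-quartile factors ended those of TIMP3, PDGFRA, FOSB and SERPINA5.

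The receptor shares depended on the length. Per kb of all exons of a gene, TYRO3 was 18.07% in EV and 23.53% in HDAC8 and MERTK 79.92% and 65.52%. Per kb of coding sequence these were 38.96%, 45.94%, 58.98% and 43.86%. The 4 log2 ratios kept their direction in all 36 alternatives.

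Values near 0 that changed sign belonged to genes that were not called. PCSK6 was at -0.002576 in edgeR, -0.08869 with upper-quartile factors, -0.002544 with TMM factors and -0.1152 to 0.1103 with 1 library left out. With upper-quartile factors CBL was at -0.01392, ANO6 at -0.02973 and TMSB10 at -0.07378, and with total-count factors MAP1B was at 0.01443. With 1 library left out ANO6 was at -0.08899 to 0.2685, RAC1 at -0.2304 to 0.07762, MAP1B at -0.1011 to 0.09641, TMSB10 at -0.02718 to 0.07085 and RPAP1 at -0.0323 to 0.2595. The causes were not tested.

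Samples with the same replicate number did not deviate together from their group means (r of -0.0273, -0.0663 and 0.0399 across 14451 genes), so the numbers do not pair them. With a replicate block 1075 genes were called higher and 1078 lower, AXL was at 2.45 (DESeq2 adjusted p = 9.55e-10), and no member changed its call. Of the other named genes TUB, PDGFRA and FOSB lost their calls under it and LGALS3 gained one.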
